A study of Arabidopsis thaliana with 7 samples.

Results

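Transcripts of 10 Arabidopsis thaliana genes known from low energy and sugar starvation were followed in roots: DIN1, DIN2, DIN10, DRM1, bZIP1, bZIP63, BCAT2, KMD4, AKINBETA1 and MIOX2. They were taken by their locus identifiers from count tables of 32833 genes, and all 10 were found. Of these, 9 passed the filter on low counts and were tested, and KMD4 did not. The cepd genotype is a roxy6 roxy7 roxy8 roxy9 quadruple mutant, made in Col-0 by genome editing and crossing, hit in the genes of the CEPD glutaredoxins, which carry a shoot signal of N demand to roots, and Col-0 is the wild type. Analysed were 4 cepd libraries (replicates 1 to 4) and 3 Col-0 libraries (replicates 1, 3 and 4). Each library pooled the roots of 50 seedlings from 5 plates and came from 1 of 4 independent experiments. All seedlings grew in continuous light with 0.5% sucrose in the medium, for 7 d on full nutrition (FN) medium and then for 2 d on low N (LN) medium, so neither darkness nor sugar depletion was part of the design. The design asks how root transcripts at low N differ when the CEPD proteins are missing.

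In plants, the kinase complex SnRK1 is a sensor of low energy. It is active when sugars run out, in darkness or under stress, and together with bZIP transcription factors of groups C and S1 it switches on genes for the breakdown of amino acids, cell wall sugars and other reserves. The DARK INDUCIBLE (DIN) genes and the dormancy-associated gene DRM1 are classical markers of this state: their transcripts accumulate in the dark and are repressed by sucrose.

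The libraries held between 30758339 and 46611731 counts in cepd and between 37292558 and 38474492 counts in Col-0. Transcripts of the edited genes ROXY6, ROXY7 and ROXY8 were still counted in cepd, which edited alleles allow, so they do not check the labels. ROXY6 was lower, at 2.79 to 4.48 CPM in cepd, against 5.23 to 5.96 CPM in Col-0 (log2FC -0.57, adjusted p = 0.0323 from edgeR). ROXY7 (log2FC -0.05) and ROXY8 (0.24) were not called. ROXY9 had 1 count in cepd replicate 3, 1 in Col-0 replicate 3 and 0 in every other library. All 9 root markers were detected, and 3 of them differed: PYK10 was higher in cepd (log2FC 1.06, adjusted p = 0.000166 from edgeR), and the root hair genes RHD6 (log2FC -1.09, adjusted p = 0.000244) and COBL9 (log2FC -0.61, adjusted p = 0.000636) were lower. The summed level of the root markers, mostly PYK10, was 9795 to 11460 CPM in cepd and 4798 to 6105 CPM in Col-0. The 10 genes of leaf development and stomata each averaged below 1 CPM, MUTE and GL1 were at 0, and their summed level was 0.448 to 0.831 CPM in cepd and 0.587 to 0.923 CPM in Col-0. The summed level of 9 photosynthesis genes was 441.9 to 556.7 CPM in cepd and 282.8 to 382.2 CPM in Col-0. Of the 9, 5 were higher in cepd and none was lower. GLDP1 had the highest level of the 9 and was not called (log2FC -0.12). Beside these calls of root and photosynthesis markers, 9.64% of all genes tested were higher in cepd and 8.30% lower. Counts of organelle genes made up 0.0553 to 0.156% of the cepd libraries (highest in replicates 1 and 2) and 0.0313 to 0.0392% of the Col-0 libraries. The part of these differences in the results below was not tested. In bulk RNA, fewer cells of a type and less RNA per cell cannot be told apart.

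Levels are given as CPM, the counts of a gene per 1000000 counts of its library after scaling for composition. A gene was called where edgeR's quasi-likelihood test gave an adjusted p under 0.05 over all 20600 genes tested. The log2 fold change (log2FC) is cepd over Col-0.

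Of the 10 genes, 4 were higher in cepd roots: the SnRK1 subunit gene AKINBETA1, the transcription factor genes bZIP1 and bZIP63, and DRM1. The other 5 genes tested were not called, and none was lower. The 10 genes were chosen with earlier results of these data known, so this count is not independent evidence. Across the genome, 9.64% of all genes tested were called higher in cepd, and 8.30% lower. In each of the 4 genes every cepd library lay above every Col-0 library, a pattern that 15.3% of all genes tested shared (13.8% had every cepd library below every Col-0 library, and no tested member did). DRM1 and bZIP1 also passed the additional threshold of a log2FC over 1, which 1.93% of all genes tested passed upwards and 2.45% downwards, and no member passed it downwards. The median log2FC of the 9 genes was 0.42, against 0.01 over all genes tested. Fitted with a term for the replicate number, since libraries of the same number deviated together, 3 members were higher (without DRM1) and 1 was lower (DIN2), beside 13.9% and 13.2% of all genes tested. This replicate block rests on 3 pairs of libraries: cepd replicate 2 has no Col-0 partner and adds nothing to the genotype difference there.

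The 250 bases before the annotated start are shown for 3 of the 4 genes that rose together, DRM1, bZIP63 and AKINBETA1, with matches to motifs in capitals. Positions and letters are from the RefSeq annotation of TAIR10.1, read 5′ to 3′ on the strand of the gene. Motifs were searched on both strands. ACGT is the core bound by many bZIP proteins, and the G-box CACGTG holds it. ACTCAT is an element bound by group S1 bZIP proteins. TGACG, the element of TGA factors, can share letters with the bZIP core. TATCCA is an element known from sugar-starved rice cells. The window of DRM1 is chr1:9935441-9935690 on the minus strand and lies partly over the locus AT1G09025. That of bZIP63 is chr5:10798306-10798555 on the minus strand. The window of AKINBETA1 is chr5:7205227-7205476 on the plus strand and lies partly over the locus AT5G00430.
DRM1: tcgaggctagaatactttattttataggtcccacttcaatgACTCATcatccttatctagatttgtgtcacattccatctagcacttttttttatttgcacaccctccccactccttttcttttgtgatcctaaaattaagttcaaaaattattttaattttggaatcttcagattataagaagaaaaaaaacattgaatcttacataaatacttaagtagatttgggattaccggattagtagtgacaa
bZIP63: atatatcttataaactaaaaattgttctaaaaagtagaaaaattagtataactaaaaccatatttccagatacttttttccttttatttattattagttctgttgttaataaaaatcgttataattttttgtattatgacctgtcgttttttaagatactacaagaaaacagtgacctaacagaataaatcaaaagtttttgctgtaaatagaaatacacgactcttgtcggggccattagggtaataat
AKINBETA1: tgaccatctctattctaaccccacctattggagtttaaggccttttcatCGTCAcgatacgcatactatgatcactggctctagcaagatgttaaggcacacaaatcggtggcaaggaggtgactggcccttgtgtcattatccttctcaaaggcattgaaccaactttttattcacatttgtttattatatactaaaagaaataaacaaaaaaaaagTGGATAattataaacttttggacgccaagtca

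In the DRM1 window, ACTCAT began 209 bases before the gene start, and 12.3% of 27437 windows of this length in the genome held it. The AKINBETA1 window held TGACG on the opposite strand (seen as CGTCA, 201 bases before the start) and TATCCA on the opposite strand (seen as TGGATA, 32 bases before it). No motif searched was found in the bZIP63 window. Over the 9 members whose windows are reported, TGACG was in those of 3 (DIN2, BCAT2 and AKINBETA1) and in 18.6% of all windows, and TATCCA was in 1 (AKINBETA1) and in 13.6% of all windows. ACGT was in the windows of DIN10 and BCAT2 and in 44.1% of all windows, and CACGTG was in none of the 9 and in 6.49% of all windows. These matches describe letters, not binding.

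**Figure D1:**
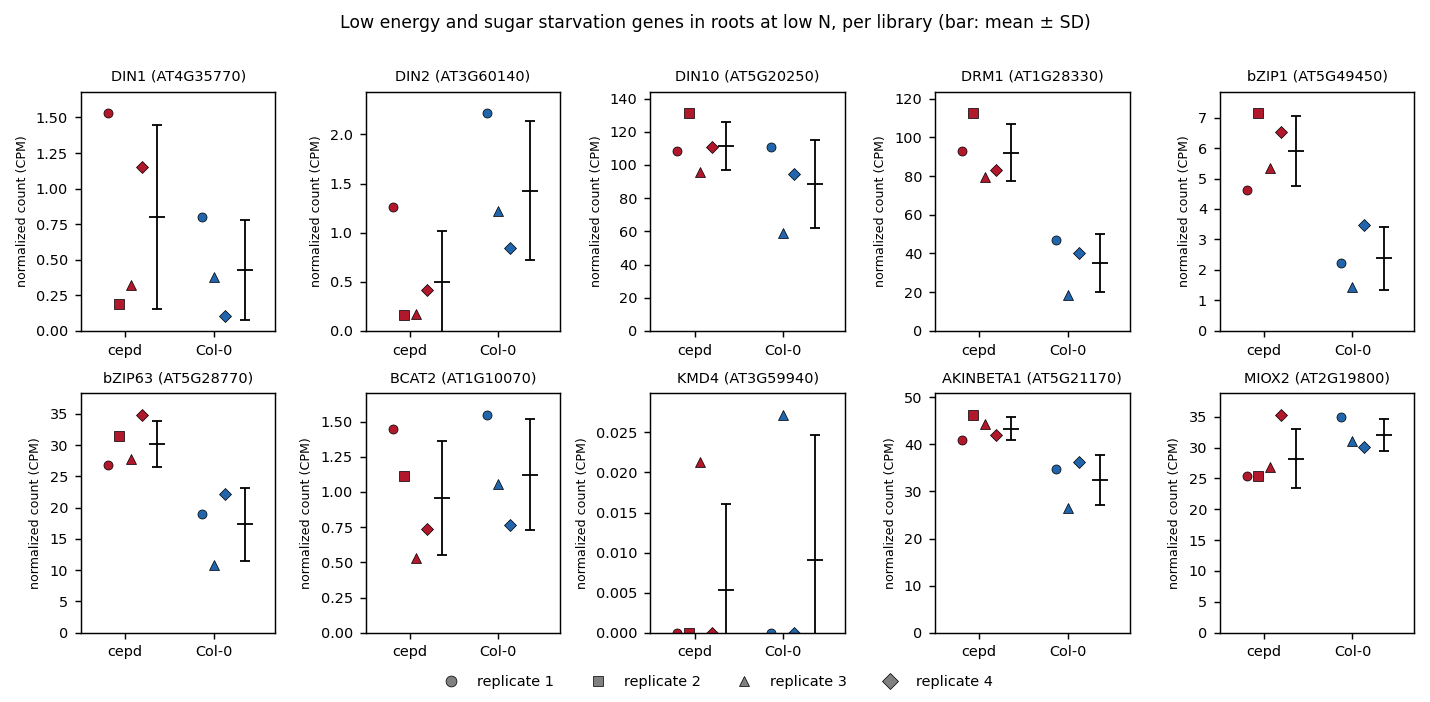
Normalized counts (CPM, linear axes from 0) of the 10 genes in each library, cepd to the left of Col-0. Marker shapes give the replicate and bars the mean ± SD (n = 4 for cepd, n = 3 for Col-0). The cepd points of DRM1, bZIP1, bZIP63 and AKINBETA1 lie above all Col-0 points, and those of the other genes overlap with Col-0.

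AKINBETA1 (AT5G21170, chr5:7205477-7208613, plus strand) encodes a regulatory β subunit of SnRK1, and its transcript was higher in cepd by a modest amount. It had 40.9, 46.2, 44.4 and 42.0 CPM in cepd replicates 1 to 4, against 34.7, 26.4 and 36.4 CPM in Col-0 replicates 1, 3 and 4. The cepd libraries were close together (43.4 ± 2.39 CPM, SD, n = 4), while Col-0 (32.5 ± 5.31 CPM, SD, n = 3) had its lowest value in replicate 3. The log2FC was 0.42 (standard error 0.11, adjusted p = 0.0270 from edgeR). Leaving out cepd replicate 2 (adjusted p = 0.0824), cepd replicate 3 (0.0682) or Col-0 replicate 3 (log2FC 0.29, adjusted p = 0.0613) ended the call.

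Among the other 6 SnRK1 subunit genes tested, 1 was higher in cepd and none lower, beside 9.64% and 8.30% of all genes tested. KING1, which encodes a subunit of the γ type, was higher in every cepd library, with 147.5 to 159.4 CPM, against 95.2 to 120.9 CPM in Col-0 (log2FC 0.48, standard error 0.09, adjusted p = 0.00675 from edgeR, and 0.0658 with cepd replicates 3 and 4 only). The catalytic subunit gene KIN11 had 53.2 to 57.2 CPM in cepd and 56.5 to 58.6 CPM in Col-0. SNF4, encoding the βγ subunit, had 73.3 to 79.4 CPM in cepd and 75.6 to 87.5 CPM in Col-0. Neither was called (adjusted p = 0.564 and 0.428 from edgeR). The second β subunit gene, AKINBETA2, had a log2FC of 0.00 (standard error 0.06). Within each library, the log2 ratio of AKINBETA1 over AKINBETA2 was -0.52, -0.35, -0.53 and -0.57 in cepd, against -0.82, -1.19 and -0.76 in Col-0. This difference of 0.43 had p = 0.0286 in a two-sided exact permutation test, the smallest that 4 against 3 libraries allow, and 0.0714 after adjustment over the 5 ratios compared.

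bZIP1 and bZIP63 encode group S1 and group C transcription factors that can pair with each other, and bZIP63 is a known phosphorylation target of SnRK1. Both were higher in cepd. bZIP1 (AT5G49450, chr5:20051829-20052735, plus strand) had 4.61, 7.13, 5.34 and 6.52 CPM in cepd, against 2.21, 1.44 and 3.48 CPM in Col-0. The lowest cepd library was thus above the highest Col-0 library, and the means were 5.90 ± 1.14 CPM (SD, n = 4) in cepd and 2.38 ± 1.03 CPM (SD, n = 3) in Col-0. The log2FC was 1.30 (standard error 0.27, adjusted p = 0.00955 from edgeR), a 2.47-fold difference.

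bZIP63 (AT5G28770, chr5:10796457-10798305, minus strand) had 26.8, 31.5, 27.7 and 34.8 CPM in cepd, against 19.0, 10.8 and 22.2 CPM in Col-0. Again the groups did not overlap, and Col-0 replicate 3 was the lowest library. The log2FC was 0.80 (standard error 0.21, adjusted p = 0.0333 from edgeR). This call rested on all 4 cepd libraries: without replicate 1, 2, 3 or 4 of cepd the adjusted p was 0.0526, 0.0823, 0.0572 and 0.0793, with log2FC from 0.72 to 0.85, and with no filter on low counts it was 0.0647. The log2 ratio of bZIP1 over bZIP63 was -2.36 ± 0.17 in cepd (SD, n = 4) and -2.89 ± 0.22 in Col-0 (SD, n = 3), a difference of 0.52 (two-sided exact permutation p = 0.0286, adjusted p = 0.0714 over the 5 ratios).

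None of the other 7 group C and S1 bZIP genes was called. bZIP2 had 155.8 to 189.9 CPM in cepd, below the 191.3 to 214.0 CPM of Col-0 in every library (log2FC -0.25, standard error 0.08, adjusted p = 0.0664 from edgeR). bZIP11, a sucrose-regulated S1 factor, had 34.6 to 40.5 CPM in cepd, against 42.3 to 46.6 CPM in Col-0 (log2FC -0.25, adjusted p = 0.0674 from edgeR). Both log2FC had the opposite sign to those of bZIP1 and bZIP63, and both passed the threshold with DESeq2 (adjusted p = 0.0290 for bZIP2 and 0.0367 for bZIP11). bZIP2 also passed in edgeR when blocked by replicate (adjusted p = 0.00481) and without cepd replicate 4 (0.0340), and bZIP11 without Col-0 replicate 1 (0.0437). bZIP44 had a log2FC of -0.16 (adjusted p = 0.320 from edgeR).

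DRM1 (AT1G28330, chr1:9933786-9935440, minus strand) showed the largest called difference of the 10 genes. It is a dormancy-associated gene whose transcript is high in growth-arrested buds and low in the presence of sugar. It had 92.7, 112.3, 79.4 and 83.3 CPM in cepd, against 47.2, 18.4 and 40.2 CPM in Col-0. The cepd libraries were all well above Col-0, and replicate 3 was the lowest library in both genotypes. The means were 91.9 ± 14.7 CPM in cepd (SD, n = 4) and 35.3 ± 15.02 CPM in Col-0 (SD, n = 3), a 2.61-fold difference (log2FC 1.38, standard error 0.29, adjusted p = 0.0127 from edgeR). Without Col-0 replicate 3 the log2FC was 1.07 (adjusted p = 0.00398). Blocked by replicate it was 1.36, and the adjusted p was 0.0957.

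None of the 3 DIN genes among the 10 was called: the log2FC was positive for DIN1 and DIN10 and negative for DIN2. DIN1 (AT4G35770, chr4:16944878-16946266, plus strand; also SEN1), a senescence and dark marker, had 1.53, 0.191, 0.320 and 1.15 CPM in cepd, against 0.800, 0.380 and 0.106 CPM in Col-0. Replicates 1 and 4 of cepd lay above Col-0 and the other 2 within its range, and with 170 counts over all 7 libraries the log2FC of 0.90 had a standard error of 0.77 (adjusted p = 0.461 from edgeR).

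DIN2 (AT3G60140, chr3:22216540-22220824, plus strand) encodes a β-glucosidase. It had 1.26, 0.159, 0.171 and 0.419 CPM in cepd, against 2.21, 1.22 and 0.844 CPM in Col-0. Replicate 1 was the highest library in both genotypes, and the cepd library of this number lay within the range of Col-0 while the other 3 lay below it. The log2FC was -1.51 (standard error 0.63, adjusted p = 0.138 from edgeR). Blocked by replicate, the log2FC was -1.33 and passed the threshold (adjusted p = 0.0236), as it did without cepd replicate 1 (log2FC -2.50, adjusted p = 0.0105).

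DIN10 (AT5G20250, chr5:6833564-6836862, plus strand), annotated in the raffinose synthase family, was among the 3 most abundant of the 10 transcripts per length in both genotypes. It had 108.5, 131.0, 95.7 and 110.7 CPM in cepd, against 111.0, 59.1 and 94.6 CPM in Col-0. Only Col-0 replicate 3 stood below the rest, and the log2FC of 0.34 was not called (standard error 0.19, adjusted p = 0.268 from edgeR). Of its 3120 exon bases, 82 overlap the opposite-strand gene AT5G20260.

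**Figure D2:**
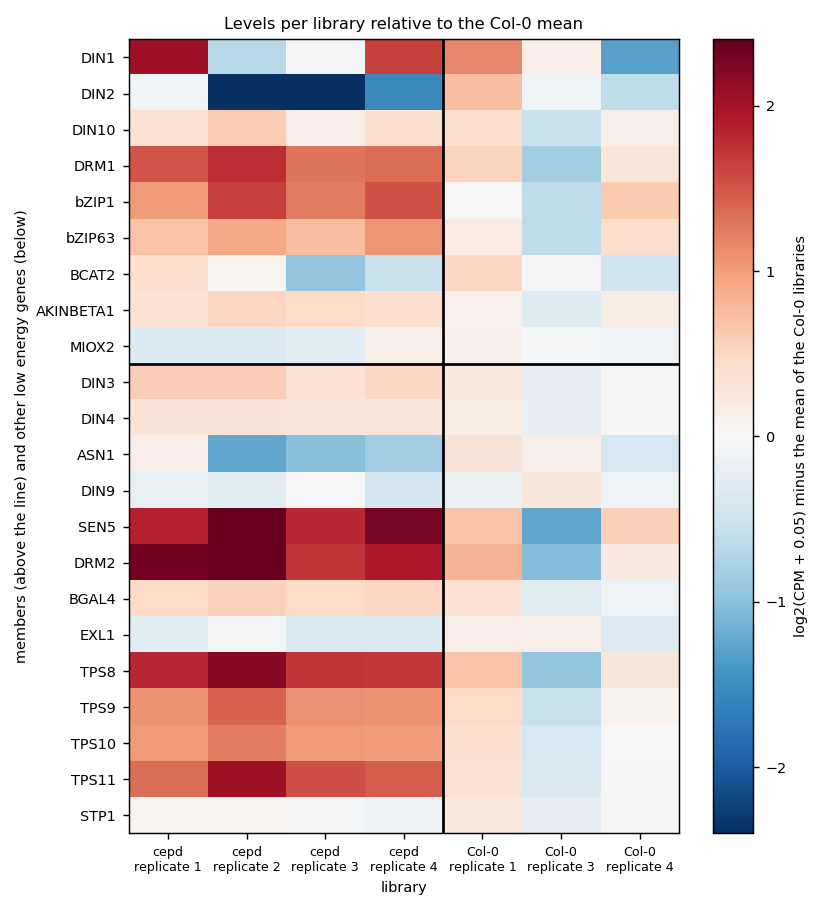
Level of each gene per library as log2(CPM + 0.05) minus the mean of the Col-0 libraries, with the 9 tested members above the horizontal line and other low energy genes below it. The 4 cepd libraries stand left of the vertical line and the 3 Col-0 libraries right of it. Rows of DRM1, bZIP1, bZIP63, SEN5, DRM2 and TPS8 to TPS11 are red in all cepd libraries, those of DIN1 and ASN1 are mixed, that of DIN2 is blue or near 0, and Col-0 replicate 3 is the bluest Col-0 column for most of the red rows.

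In the list of other dark-inducible and low energy genes, 9 of the 13 tested were higher in cepd and none was lower. The list was chosen with earlier results of these data known, so this count is not independent evidence. Of the 9, 6 passed the fold threshold as well. Of all genes tested, 9.64% were higher and 8.30% lower, and 1.93% passed the fold threshold upwards. The list's median log2FC was 0.50. By smallest adjusted p it was led by class II trehalose phosphate synthase genes, whose proteins are regarded as regulatory. TPS11 had 29.1 to 47.5 CPM in cepd, against 8.99 to 14.5 CPM in Col-0 (log2FC 1.60, standard error 0.20, adjusted p = 0.000959 from edgeR).

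TPS10 had 148.6 to 173.0 CPM in cepd, against 56.2 to 96.7 CPM in Col-0, a log2FC of 1.03 (adjusted p = 0.00222 from edgeR). The log2FC of TPS9 was 1.12 (adjusted p = 0.00583, but 0.0743 with the replicate block, from edgeR). The largest log2FC in the list were those of DRM2, SEN5 (1.92, adjusted p = 0.0201 from edgeR) and TPS8 (1.72, adjusted p = 0.0093), which are named after their values were seen. DRM2, a relative of DRM1, had 100.5 to 205.1 CPM in cepd, against 14.9 to 54.1 CPM in Col-0 (log2FC 2.05, standard error 0.44, adjusted p = 0.0157 from edgeR). When blocked by replicate, the log2FC were 1.96 for DRM2, 1.93 for SEN5 and 1.69 for TPS8, and the calls were lost (adjusted p = 0.0626, 0.139 and 0.105). With no filter on low counts DRM2 (0.0577) and SEN5 (0.0684) were not called, nor was SEN5 without cepd replicate 4 (0.0623).

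EXL1, a gene needed for growth under low carbon supply, was not called (log2FC -0.27, adjusted p = 0.213 from edgeR), and neither was the asparagine synthetase gene ASN1, known as DIN6 (log2FC -0.65, adjusted p = 0.225 from edgeR). ASN1, named after its values were seen, was lower without cepd replicate 1 (log2FC -1.05, adjusted p = 0.0084). Blocked by replicate, 5 genes of the list were called higher, beside 13.9% of all genes tested. With only replicates 3 and 4 of cepd 2 were, and the share of all genes called in that fit is not given. DIN11 did not pass the filter on low counts. It had 3, 39, 9 and 6 counts in cepd replicates 1 to 4, against 1, 0 and 0 counts in Col-0, and most of these counts came from 1 library.

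BCAT2 (AT1G10070, chr1:3288087-3290471, plus strand) encodes a branched-chain amino acid transaminase. It had 1.45, 1.11, 0.534 and 0.734 CPM in cepd, against 1.55, 1.06 and 0.765 CPM in Col-0. The values of the 2 genotypes interleaved (log2FC -0.25, standard error 0.36, adjusted p = 0.662 from edgeR). The sign of the log2FC turned without Col-0 replicate 1 (0.04). Of its 1752 exon bases, 161 overlap the opposite-strand gene AT1G10090. The log2 ratio of BCAT2 over BCAT1 was 0.42 ± 1.09 in cepd (SD, n = 4) and 1.11 ± 0.58 in Col-0 (SD, n = 3), with an adjusted p of 0.343 over the 5 ratios by the exact permutation test.

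Of the 15 other genes of branched-chain amino acid breakdown, 3 were higher in cepd and none was lower, beside 9.64% and 8.30% of all genes tested. The list's median log2FC was 0.20. IVD, which encodes isovaleryl-CoA dehydrogenase of leucine breakdown, had 42.9 to 51.2 CPM in cepd, against 29.1 to 34.8 CPM in Col-0 (log2FC 0.52, standard error 0.09, adjusted p = 0.00388 from edgeR). DIN3 and DIN4, which encode subunits of the branched-chain keto acid dehydrogenase complex and also stand in the low energy list, had log2FC of 0.50 (adjusted p = 0.0155 from edgeR) and 0.29 (adjusted p = 0.0499). The DIN4 call was lost without any 1 of the 4 cepd libraries (adjusted p from 0.0816 to 0.118), without Col-0 replicate 3 (0.155) and without Col-0 replicate 4 (0.0992). That of DIN3 was lost without cepd replicate 2 (0.0509), Col-0 replicate 3 (0.0636) and Col-0 replicate 4 (0.0561). ETFB had a log2FC of -0.12 (adjusted p = 0.262 from edgeR). Blocked by replicate, 6 genes of this list were called higher, beside 13.9% of all genes tested. Without Col-0 replicate 1 the number was 6 as well. Without cepd replicate 2, Col-0 replicate 3 or Col-0 replicate 4 only 1 was called higher. The share of all genes called without a library is not given.

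MIOX2 (AT2G19800, chr2:8530865-8533779, minus strand) encodes a myo-inositol oxygenase, which turns inositol into glucuronate. It had 25.3, 25.3, 26.9 and 35.2 CPM in cepd, against 34.9, 31.1 and 30.02 CPM in Col-0. The first 3 cepd libraries lay below Col-0, and replicate 4 was the highest of all 7 (log2FC -0.18, standard error 0.12, adjusted p = 0.335 from edgeR). Without cepd replicate 4 the log2FC was -0.31 (adjusted p = 0.0393). Its relative MIOX1 was lower in cepd, with 2.24 to 3.49 CPM, against 3.90 to 4.26 CPM in Col-0 (log2FC -0.59, standard error 0.16, adjusted p = 0.0305 from edgeR). That call was lost without cepd replicate 2, 3 or 4 (adjusted p = 0.0768, 0.0822 and 0.0693) and without Col-0 replicate 3 or 4 (0.108 and 0.0658). MIOX4 stayed below 0.40 CPM in every library and was not called (adjusted p = 0.781 from edgeR). The log2 ratio of MIOX2 over MIOX4 differed by -0.76 between cepd (6.56 ± 0.40, SD, n = 4) and Col-0 (7.32 ± 1.32, SD, n = 3), with an adjusted p of 0.343 over the 5 ratios by the exact permutation test, and without Col-0 replicate 3 the difference was 0.00.

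In the wider raffinose family list around DIN10, which holds genes that make and cleave this group of transport and storage sugars, 1 of 10 other genes was called. It was lower in cepd, as were 8.30% of all genes tested. RS4, a stachyose synthase gene, had 2.55 to 4.77 CPM in cepd, against 7.94 to 9.48 CPM in Col-0 (log2FC -1.21, standard error 0.18, adjusted p = 0.00190 from edgeR). The α-galactosidase gene AGAL1 (log2FC 0.29, adjusted p = 0.124 from edgeR, and 0.0454 without Col-0 replicate 4) and the galactinol synthase gene GOLS1 (log2FC 0.28, adjusted p = 0.142) were not called.

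Genes that sugar induces, the opposite class, gave no call among the 3 tested. GPT2 and BAM5, also in this list, did not pass the filter on low counts. Of all genes tested, 9.64% were higher and 8.30% lower, so 3 genes without a call say little about this class. The starch synthase gene GBSS1 differed by a log2FC of 0.46 with an SE of 0.22 (edgeR adjusted p = 0.180), TPS5 one of -0.16 (adjusted p = 0.379) and APL3 one of 0.00 (adjusted p = 0.980).

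KMD4 (AT3G59940, chr3:22142856-22144439, plus strand) encodes a Kelch repeat F-box protein of a family that marks type-B cytokinin response regulators and phenylpropanoid enzymes for degradation. It had 1 count in cepd replicate 3 and 1 count in Col-0 replicate 3, and 0 counts in the other 5 libraries. These counts say little about the transcript: all 1540 of its exon bases are shared with the opposite-strand loci AT3G59950 and AT3G09275 in the annotation. The library kit does not mark strand, and how reads over 2 loci were handled is not given in the sources used here. AT3G59950 was counted at 51.4 to 56.6 CPM in cepd and 49.5 to 54.4 CPM in Col-0, and AT3G09275 had 0 counts. Of the 349 coding genes with every exon base shared with another locus, 348 had no more than 3 counts in all libraries together. The same held for 3793 of the 19961 coding genes with none shared.

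KMD3 is covered by other loci in the same way (all 1445 exon bases) and had 0 counts. The 2 other KMD genes were measurable. KMD1 had 4.32, 7.93, 5.23 and 4.80 CPM in cepd, against 2.03, 1.79 and 2.48 CPM in Col-0, with no overlap between the genotypes (log2FC 1.40, standard error 0.22, adjusted p = 0.00271 from edgeR). KMD2 had 42.1 to 52.1 CPM in cepd, against 30.6 to 41.6 CPM in Col-0 (log2FC 0.34, adjusted p = 0.0652 from edgeR), and it passed the threshold with DESeq2 (adjusted p = 0.0426), blocked by replicate in edgeR (0.00413) and without Col-0 replicate 4 (0.0416). The ratio of KMD4 over KMD1, the fifth compared, rests on KMD4 counts of 0 or 1 and is not interpreted.

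**Figure D3:**
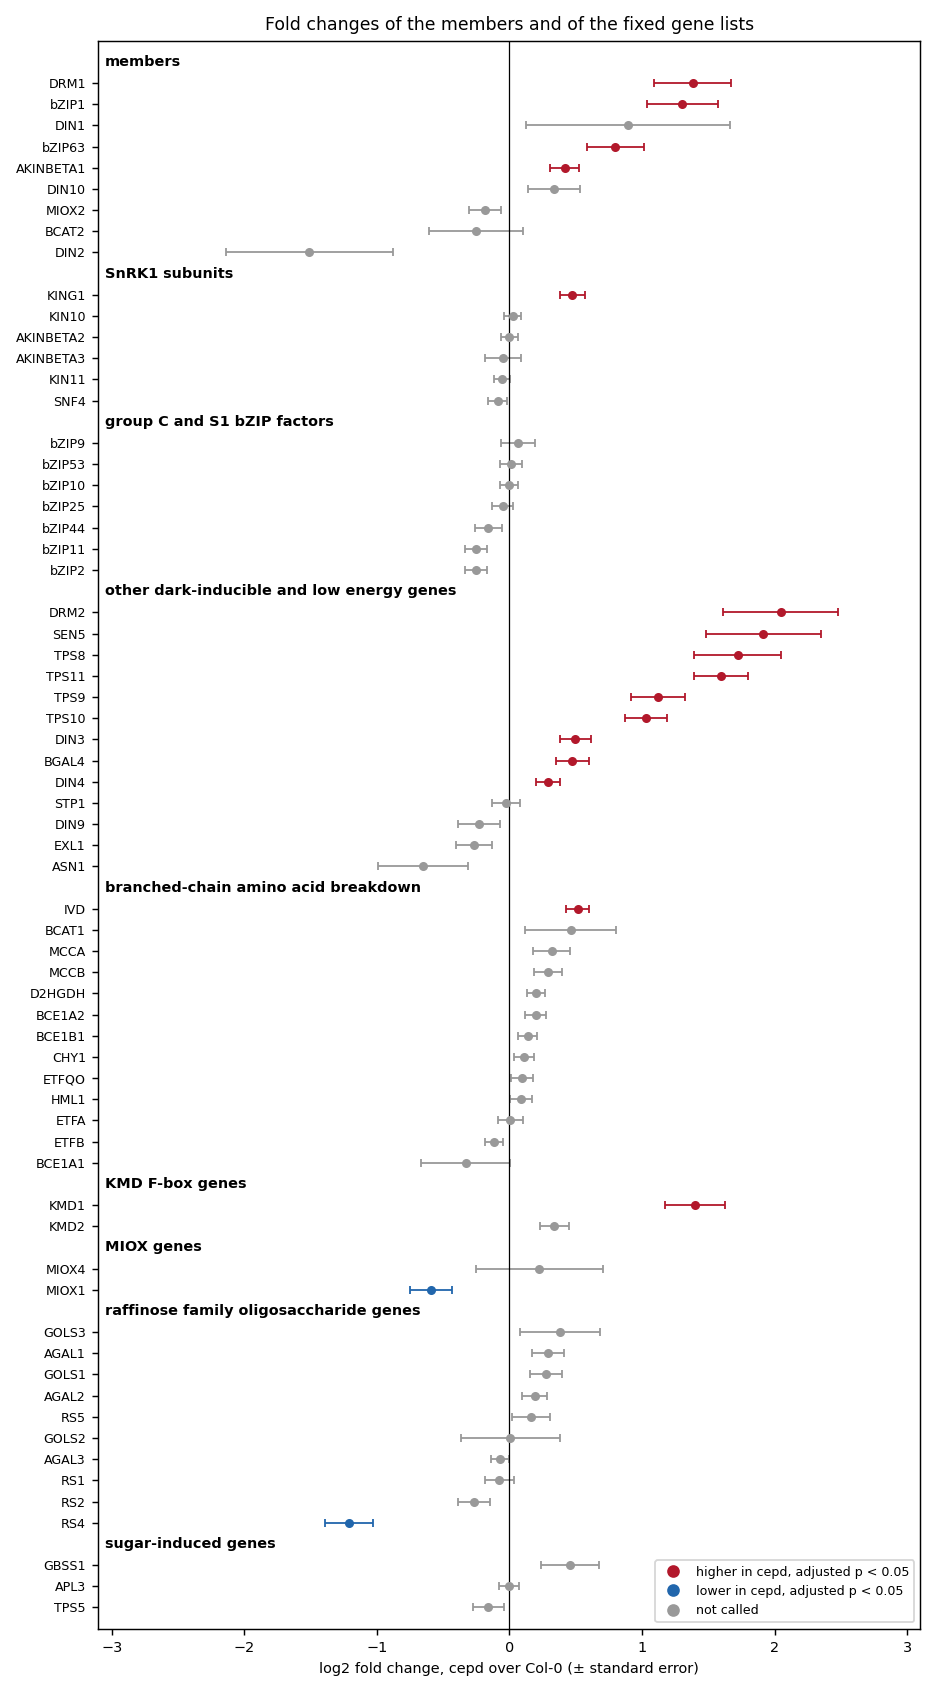
The log2 fold change of cepd over Col-0 (points, with bars for ± 1 standard error) for the 9 tested members and for the other genes of each list, each gene shown once. Red points were called higher and blue points lower in cepd, and grey points were not called. Red points gather among the dark-inducible and low energy genes (9 of 13), and the blue points are MIOX1 and RS4. Members and lists were chosen with earlier results of these data known.

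Per kilobase of exon, the order of the levels differed between the genotypes at the top. In cepd, DRM1 led with 58.8 ± 9.40 CPM per kb, followed by DIN10 (35.7 ± 4.68), AKINBETA1 (26.5 ± 1.46), bZIP63 (20.9 ± 2.54), MIOX2 (17.4 ± 2.94) and bZIP1 (6.51 ± 1.26; SD, n = 4 each). In Col-0, DIN10 led with 28.3 ± 8.50 CPM per kb, followed by DRM1 (22.5 ± 9.61), AKINBETA1 (19.9 ± 3.24), MIOX2 (19.8 ± 1.58), bZIP63 (12.0 ± 4.06) and bZIP1 (2.62 ± 1.14; SD, n = 3 each). The libraries of neighbours in this order overlapped for bZIP63 and MIOX2 in cepd, and for DIN10 and DRM1, DRM1 and AKINBETA1, and AKINBETA1 and MIOX2 in Col-0. DIN1, DIN2 and BCAT2 were below 1 CPM per kb on average in both genotypes, with overlapping ranges.

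Col-0 replicate 3 was the lowest Col-0 library for 5 of the 9 members tested (55.6%) and for 10 of the 13 other low energy genes (76.9%), compared with 26.8% of all genes tested and 50.1% of the 1986 genes called higher in cepd. Without it, DRM1 (log2FC 1.07), bZIP1 (1.05, adjusted p = 0.0275) and bZIP63 (0.55, adjusted p = 0.0287) were still called by edgeR, and AKINBETA1 was not. With only replicates 3 and 4 of cepd, which leaves out the cepd libraries with the largest organelle shares and was chosen after the data were seen, none of the 4 passed. The log2FC were 1.20, 1.31, 0.85 and 0.41 for DRM1, bZIP1, bZIP63 and AKINBETA1, against 1.38, 1.30, 0.80 and 0.42 with all libraries. The adjusted p were 0.146, 0.0536, 0.159 and 0.136 from edgeR in this smaller fit. Fewer libraries alone can lose calls, and the share of all genes called in this fit is not given.

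**Figure D4:**
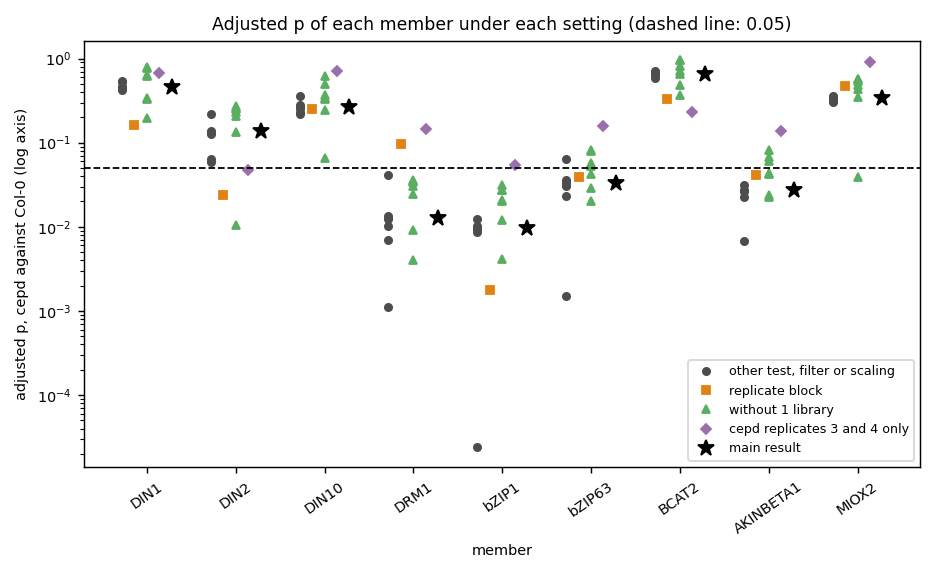
Adjusted p (log axis) of the 9 tested members in the result reported (star) and under each alternative: another test, filter or scaling, the replicate block, each library left out in turn, and cepd replicates 3 and 4 only. The dashed line marks 0.05. All settings but cepd replicates 3 and 4 only put bZIP1 below the line, DRM1 crosses it with the block and with those replicates, and bZIP63 and AKINBETA1 lie on both sides. DIN2 falls below the line in 3 settings and MIOX2 in 1, both with a negative log2FC.

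The genes whose pattern over the 7 libraries was most like the mean of the 9 tested members were AT2G22890, CYP705A13 and the type-A response regulator gene RR5, with root mean square differences of 0.07, 0.07 and 0.08 in centred log2 CPM. The mean profile itself had its lowest point in Col-0 replicate 3 (-0.53) and its highest in cepd replicate 1 (0.32). All 9 members weigh alike in it. Among the cepd libraries, replicate 1 was the highest for DIN1, DIN2 and BCAT2, which had few counts. It was the lowest for bZIP1, bZIP63, AKINBETA1 and MIOX2, so the mean profile does not describe each member. RR5, a gene that cytokinin induces, had 33.2 to 49.8 CPM in cepd, against 23.2 to 39.5 CPM in Col-0 (log2FC 0.43, adjusted p = 0.144 from edgeR). It passed the threshold with the replicate block (adjusted p = 0.000823) and without Col-0 replicate 1 (0.0161). CYP705A13 likewise had an adjusted p of 0.155, of 0.0295 with the block and of 0.0223 without Col-0 replicate 1, and AT2G22890 one of 0.174, and of 0.0351 without that library.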

How the data were processed

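RNA-seq counts were analysed of 4 cepd and 3 Col-0 root libraries grouped by genotype. The authors deposited raw counts per gene, made according to the submitters' processing notes with CASAVA 1.8.2, STAR 2.5.2b-2 (TAIR10), HTSeq 0.9.1 and DESeq2 2.11.40.6. The excluded Col-0 replicate 2 is not analysed here. The paper states that a Col-0 sample was left out because leaf material had contaminated it. All 32548 nuclear identifiers matched the TAIR10.1 annotation.

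In edgeR 4.0.16, filterByExpr with its minimum count of 10 and total of 15 kept 20600 genes. TMM factors ran from 0.986 to 1.02. Genotypes were compared by robust quasi-likelihood, with Benjamini-Hochberg adjustment over all genes kept, and each standard error is the absolute log2FC over the root of F. The code was tested on simulated data. Counting error alone is small at these depths except for genes under 1 CPM, where 3 counts correspond to 0.0640 to 0.0955 CPM.

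The labels number replicates alike in both genotypes, and same-numbered libraries deviated together from their genotype means (correlations 0.435, 0.189 and 0.274 for numbers 1, 3 and 4). Other numbers also reached 0.192 (cepd 4 with Col-0 3). Ratios had 0.5 counts added. Alternatives were DESeq2 1.42.0, limma-voom (limma 3.58.1), DESeq2 size factors, no filter or 1 CPM in 3 libraries, nuclear genes only, the replicate block, and leaving out each library.

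Members and lists were chosen with earlier results of these data known. Named were all members, up to 3 genes per list by smallest adjusted p, the first against the list's direction, and the 3 genes closest in profile (0.5 added before the log2). Likeness used the 9 tested members. The promoter window of 1 member is not reported here.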

Additional observations from a re-analysis of the deposited data

Results flagged for a closer look

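Of 40 genes checked for 1 cepd library far from the other 3 (Dixon's test), 4 were found, where chance gives about 1 in 20. MIOX2 was at 35.24 CPM in cepd replicate 4, with the others at 25.31 to 26.92 CPM. TPS10 was at 173 CPM in cepd replicate 2 (others 148.6 to 150.8 CPM), and TPS9 at 103 CPM in the same library (others 81.25 to 83.24 CPM). CYP705A13 was at 21.71 CPM in cepd replicate 3, with the others at 24.44 to 24.99 CPM.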

How the results depend on the processing

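The number of members called higher in cepd (4) was 3 to 4 with another test, scaling or filter, and 2 to 4 when single libraries were left out: 2 without cepd replicate 2 and 2 without cepd replicate 3. It was 0 with cepd replicates 3 and 4 only, a smaller fit. The share of all genes called is not given for these alternatives, here and below, except for the replicate block. The number called lower (0) was 0 to 1 when single libraries were left out (DIN2 without cepd replicate 1, MIOX2 without cepd replicate 4) and 1 with cepd replicates 3 and 4 only (DIN2). Past the fold threshold, 2 to 3 members were higher and 0 to 1 lower with single libraries left out, and 0 were higher and 1 lower with cepd replicates 3 and 4 only. Because same-numbered libraries deviated together, which was taken as pairing, the replicate block was also fitted: it gave 3 members higher (DRM1 lost) and 1 lower (DIN2), and past the fold threshold 1 higher and 1 lower, while 13.9% of all genes were called higher and 13.2% lower. The block changed no other member's call. It rests on 3 pairs of libraries, since cepd replicate 2 has no Col-0 partner, so a lost call can also reflect the loss of that library.

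Of the 56 non-member list genes tested, 12 were higher and 2 lower in cepd, beside 9.64% and 8.30% of all genes tested. Of the 12, 9 stand in the list of other dark-inducible and low energy genes, chosen with earlier results of these data known. Higher calls were 9 to 15 with single libraries left out and 4 with cepd replicates 3 and 4 only. Lower calls were 1 to 3 with single libraries left out and 4 with DESeq2. They were 4 with the replicate block, beside 13.2% of all genes tested. For the other fits the share of all genes called is not given. Whether these counts only follow that share was not tested. With 2 counts added, the ratios of bZIP1 over bZIP63 (0.51) and AKINBETA1 over AKINBETA2 (0.43) had adjusted p of 0.0476 in the exact permutation test, as did KMD4 over KMD1 (-1.43). The unadjusted p of the bZIP and AKINBETA ratios was already the smallest possible, so only the adjustment changed. It changed through the ratio of KMD4 over KMD1, which is not interpreted, so the lower adjusted p adds no evidence. The causes were not tested.

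DIN1, DIN2, BCAT2 and DIN11 had few counts, and DIN1 varied widely between libraries of each genotype. With 4 libraries against 3, a call near the threshold can turn on 1 library.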
